A study of Danio rerio with 6 samples.

Results

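Haem is the iron-containing ring that lets globin carry oxygen and cytochromes carry electrons. It is built in 8 enzymatic steps, which begin and end in the mitochondrion and pass through the cytosol in between. The transcripts of its enzymes were measured in whole zebrafish embryos at 24 hpf, when the primitive red blood cells of the embryo are making haemoglobin. The genes considered were *alas1*, *alas2*, *alad*, *hmbs*, *uros*, *urod*, *cpox*, *ppox* and *fech*, and a probe set was taken where its symbol in the platform annotation was equal to one of these names. Of the 9 genes, 7 had a probe set, 1 each, out of 15502 probe sets tested. *hmbs*, the enzyme of step 3, and *ppox*, the enzyme of step 7, were not matched to a probe set and were not analysed here. The symbols of all 7 genes were those that RefSeq gives for the same Entrez ID today. The rule itself uses names and no measured value.

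The 6 samples were 3 of fog sk8 mutant embryos and 3 of their WT siblings, and the labels name no treatment that differed between the groups. The study's wild-type strain was AB. The sk8 allele severely truncates Spt5, an RNA polymerase II elongation factor encoded by *supt5h*, and the mutants still carry Spt5 protein that the mother laid down in the egg. Each sample was total RNA of a pool of whole embryos, with equal numbers of mutants and siblings, on 1 Affymetrix Zebrafish Genome Array. The number of embryos in a pool, and whether the siblings included heterozygous carriers of the allele, are not given in the sources used here. Values are GC-RMA values on the log2 scale, so that a difference of 1 is a 2-fold difference. A gene is said to have risen or fallen where the adjusted p (limma, Benjamini-Hochberg over all 15502 probe sets) was under 0.05 and the change was at least 2-fold. With 3 arrays a group, the number of arrays sets how precise each value is.

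The labels were first checked against the mutated gene. *supt5h* read 7.42, 7.56 and 6.80 in WT replicates 1 to 3 and 3.66, 3.70 and 3.81 in fog sk8 replicates 1 to 3, so its transcript was low in each mutant sample. Array medians lay between 5.08 and 5.15 and the 10th percentiles between 2.28 and 2.35, the region taken here as the floor of the values. Replicate 3 correlated less with the others of its group (0.991 to 0.992) than replicates 1 and 2 did with each other (0.996 to 0.997). Among single markers of other tissues, *krt4* of the skin did not pass the test (14.00 in both groups, adjusted p = 0.989), while *actc1b* of muscle (log2 fold change −1.54) and *kdrl* of blood vessels (−1.45) fell. *elavl3* of neurons had a log2 fold change of −0.87, short of 2-fold. *lyz*, the lysozyme of myeloid cells, another blood lineage, fell by more than any haem synthesis gene, from 7.46, 7.57 and 8.64 in WT to 2.82, 2.79 and 2.75 in fog sk8 embryos (−5.10 on the log2 scale with an SE of 0.32, adjusted p = 0.00127). *spi1b*, a transcription factor of myeloid cells that was near the floor in both groups, had a log2 fold change of −0.09 (adjusted p = 0.559). *mpx*, a further myeloid marker that also lay near the floor in both groups, had one of 0.07 (adjusted p = 0.45). A decrease in *spi1b* or *mpx* would hardly be seen, so the fall among myeloid markers rests on *lyz* alone.

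Vertebrates have a pair of genes for 5-aminolevulinate synthase, the mitochondrial enzyme that joins glycine and succinyl-CoA and sets the rate of the pathway. *alas1* serves all tissues, and *alas2* serves developing red blood cells. Zebrafish mutants of several of these genes were found by their pale or light-sensitive blood, among them *sauternes* (*alas2*), *yquem* (*urod*), *montalcino* (*ppox*) and *dracula* (*fech*).

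In fog sk8 embryos the synthase genes went opposite ways: *alas2* was the most reduced of the 7 genes, and *alas1* was the only one with a higher mean. In all, 4 of the 7 genes fell (*alas2*, *alad*, *urod* and *cpox*) and 0 rose, although 1 (*alas1*) was higher at an unadjusted p under 0.05 and none rose by the methods' t-test with the 2-fold minimum. Among all probe sets tested, 2.87% fell and 0.748% rose by the same rule. At an unadjusted p under 0.05 and any fold (limma), 6 of the 7 were lower and 1 was higher. Of all 8793 genes, 1297 were lower and 1905 higher by that unadjusted rule. By the methods' t-test with the 2-fold minimum, 4 of the 7 were lower, where 308 of all genes were lower and 86 higher. On adjusted p alone, at any fold, 5 of the 7 were lower and 1 was higher, against 7.99% and 8.88% of all probe sets. The median log2 fold change of the 7 genes was −1.05, against 0.06 over all probe sets. The genes that fell belong to steps 1, 2, 5 and 6 and to both compartments, *alad* and *urod* being cytosolic and *alas2* and *cpox* mitochondrial. No fall is read at the steps after *cpox*, as *ppox* had no matched probe set and that of *fech* lay at or near the floor. Without fog sk8 replicate 1 the count that fell was 2, and without replicate 3 of both groups it was 4.

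**Figure D1:**
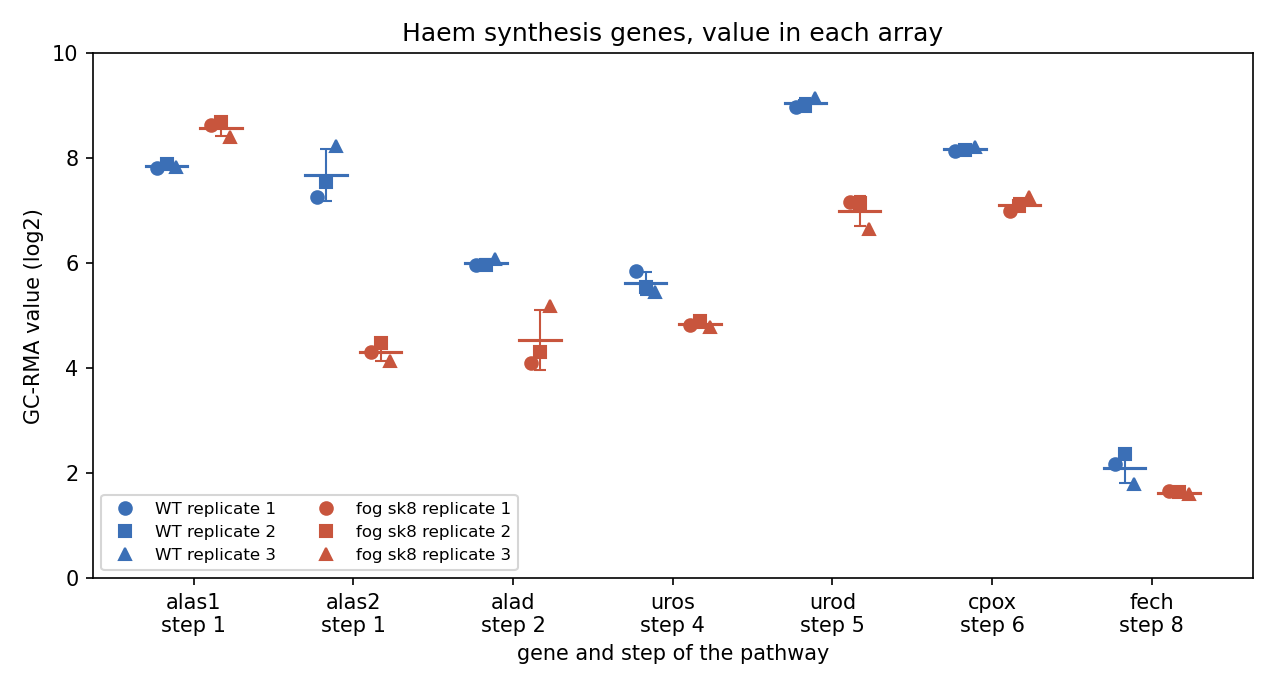
GC-RMA values (log2, y axis) of the 7 measured haem synthesis genes in pathway order (x axis), with a point for each array, a line for the mean and a bar for the SD of 3 arrays; blue is WT, red is fog sk8, and position within a group only separates the replicates. The groups lie apart in each gene, with *alas1* higher in fog sk8 and the other 6 lower, by the most in *alas2*. The probe set of *fech* lay at or near the floor, so the size of its decrease is not read.

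At step 1, *alas2* read 7.27, 7.55 and 8.23 in WT replicates 1 to 3 and 4.31, 4.48 and 4.14 in fog sk8 replicates 1 to 3. The lowest WT array was far above the highest mutant array, and the mutant values themselves stayed above the floor. The fall was 10.4-fold (log2 fold change −3.38, SE 0.26, adjusted p = 0.00207), rank 38 among the 15502 probe sets ordered from the most negative change. It passed the threshold under all 15 alternatives tried, with log2 fold changes of −3.58 to −3.02. WT arrays varied more than mutant arrays in this gene (SD 0.50 against 0.17, n = 3 each), and WT replicate 3 was the highest of all.

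*alas1* read 7.81, 7.89 and 7.83 in WT and 8.62, 8.70 and 8.40 in fog sk8 embryos. The 3 WT arrays were almost level and the 3 mutant arrays all stood above them. The difference was 1.65-fold (log2 fold change 0.72, SE 0.090, 95% interval 0.50 to 0.95, adjusted p = 0.00729), which passed the test on p but not the 2-fold minimum. Of all probe sets, 97.2% had a lower change. With arrays centred on their medians the log2 fold change was 0.76, and over all 15 alternatives it was 0.66 to 0.81 with p-values of 0.00144 to 0.0355.

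Because both synthase genes were read on the same arrays, their unequal change could be compared within each array. The log2 value of *alas2* minus that of *alas1* lay between −0.55 and 0.40 in WT and between −4.32 and −4.22 in fog sk8 arrays. Only the change of this difference has a meaning, since levels of separate probe sets are not on a common scale, and that change was −4.10. The same quantity was computed for *alas2* against each of the other 6 genes. It changed by −1.32 against *urod*, −1.90 against *alad*, −2.33 against *cpox* and −2.60 against *uros*. In these pairs and that with *alas1* the WT and mutant ranges did not overlap. *alas2* was the most reduced of the 7 genes, so a negative change against each other gene was given in advance. Its own groups lay far apart, so neither the lack of overlap nor the test that follows adds support, and only the sizes are read. No change is read against *fech*, whose probe set lay at or near the floor. Each of the pairs read had p = 0.1 by a two-sided exact permutation test over arrays (0.1 after adjustment over all 6 pairs computed), which is the smallest p that 3 against 3 arrays can give.

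At step 2, *alad* encodes the cytosolic dehydratase that condenses pairs of aminolevulinate molecules into porphobilinogen. It read 5.97, 5.97 and 6.08 in WT and 4.11, 4.31 and 5.18 in fog sk8 embryos. The WT arrays were close together, the mutant arrays were all lower, and mutant replicate 3 lay about midway between the other mutants and WT. The fall was 2.78-fold (log2 fold change −1.48, SE 0.28, adjusted p = 0.0222). The call was lost without any 1 of WT replicates 1 to 3 or of fog sk8 replicates 1 and 2 (adjusted p = 0.0537 to 0.0698), and was kept without fog sk8 replicate 3 (adjusted p = 0.00488, with a log2 fold change of −1.80). By the methods' t-test with Benjamini-Hochberg adjustment it was not called either (adjusted p = 0.0847).

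At step 4, *uros* encodes the synthase that closes the linear tetrapyrrole into the uroporphyrinogen III ring. It read 5.85, 5.55 and 5.44 in WT and 4.82, 4.90 and 4.78 in fog sk8 embryos, and here it was the mutant arrays that were close together. All of them were lower than the WT arrays. The difference was 1.72-fold (log2 fold change −0.78, SE 0.12, 95% interval −1.07 to −0.49, adjusted p = 0.0114), which again passed on p and not on fold. By the methods' t-test with Benjamini-Hochberg adjustment it did not pass on p (adjusted p = 0.0525). Over all 15 alternatives the log2 fold change was −0.86 to −0.66.

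At step 5, *urod* encodes the decarboxylase that turns uroporphyrinogen into coproporphyrinogen. It read 8.98, 8.99 and 9.15 in WT and 7.16, 7.14 and 6.66 in fog sk8 embryos. The groups were far apart, and mutant replicate 3 was the lowest array, where for *alad* it was the highest mutant array. The fall was 4.15-fold (log2 fold change −2.05, SE 0.15, adjusted p = 0.00199), rank 116 among all probe sets. Like *alas2*, it passed under all 15 alternatives, with log2 fold changes of −2.14 to −1.83.

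At step 6, *cpox* encodes the oxidase that makes protoporphyrinogen in the space between the mitochondrial membranes. It read 8.13, 8.16 and 8.20 in WT and 6.997, 7.093 and 7.257 in fog sk8 embryos. Its WT arrays were the closest of the 7 genes, with an SD of 0.036, against 0.13 in fog sk8 arrays (n = 3 each). The fall was 2.07-fold (log2 fold change −1.05, SE 0.080, adjusted p = 0.00213), so that it lay just beyond the 2-fold minimum. Without fog sk8 replicate 1 it lay just short of it (−0.99 on the log2 scale, adjusted p = 0.0113).

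At step 8, *fech* encodes ferrochelatase, which inserts the iron and completes haem. Its probe set read 2.17, 2.36 and 1.79 in WT and 1.66, 1.64 and 1.60 in fog sk8 embryos. All values lay at or near the floor in both groups, where a decrease would hardly be seen. The log2 fold change was −0.48 (SE 0.15, 95% interval −0.84 to −0.11) at an adjusted p of 0.0857, so *fech* did not pass the test. Its adjusted p was 0.0153 without WT replicate 3, 0.0352 without replicate 3 of both groups and 0.0434 with a mean-variance trend. Each of these was still at less than 2-fold.

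**Figure D2:**
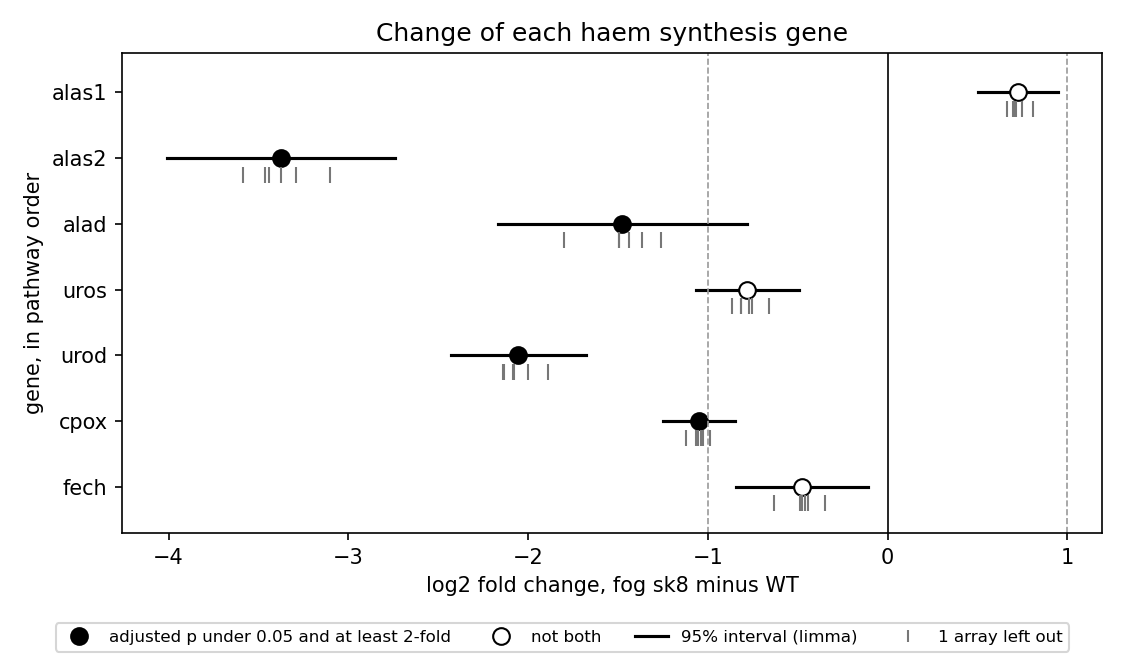
Log2 fold change of fog sk8 against WT (x axis) for the 7 genes in pathway order (y axis), with the 95% interval from limma as a line, the fits with 1 array left out as ticks and the 2-fold limits as dashed lines. *alas2*, *alad*, *urod* and *cpox* (filled) fell, at −3.38, −1.48, −2.05 and −1.05, while *alas1* lies at 0.72 on the other side of 0.

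In each of the 7 genes the mutant arrays did not overlap the WT arrays, 6 being lower and 1 higher. Of all probe sets, 13.8% were separated with the mutant lower and 23.3% with the mutant higher. Ordered by size of the decrease, the genes ran from *alas2* through *urod*, *alad*, *cpox*, *uros* and *fech* to *alas1*, an order that does not follow the steps of the pathway. The place of *fech*, at or near the floor, is not read. The 95% intervals of *alas2* (−4.01 to −2.74) and *urod* (−2.43 to −1.68) did not meet. Those of *urod* and *alad* (−2.17 to −0.78) overlapped, as did those of *alad* and *cpox* (−1.25 to −0.85), of *cpox* and *uros*, and of *uros* and *fech*, so these neighbours in the order are not told apart by their intervals.

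*gata1a*, the transcription factor that drives red blood cell development, fell, as did 4 of the 7 haem synthesis genes. It read 5.21, 4.94 and 6.06 in WT and 2.83, 2.87 and 2.70 in fog sk8 embryos, close to the floor (a log2 fold change of −2.60 with an SE of 0.29 and an adjusted p of 0.00519). Of 14 measured genes of red cells, 7 fell and 0 rose, where 3.20% of all 8793 genes fell and 0.898% rose, and their median log2 fold change was −0.82. The summed level of the 14 genes, as the log2 of the summed linear values, ranged from 11.04 to 11.90 in WT and from 10.01 to 10.26 in fog sk8 arrays. Such a sum adds probe sets that are not on a common scale, so no amount of red cells is read from it. It also weighs the brightest genes most. In fog sk8 embryos these were *blvrb* and *tmod4* (means 8.86 and 8.64), neither of which passed the test. In whole embryos, fewer red cells and less RNA per red cell cannot be told apart, and the part of either in the haem genes was not tested.

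The largest fall among the red cell genes was that of *slc4a1a*, the anion exchanger of the red cell membrane, from 7.92, 7.76 and 9.37 in WT to 2.53, 2.76 and 2.58 in fog sk8 embryos. *sptb*, the red cell spectrin chain (log2 fold change −3.36), *epb41b*, the membrane skeleton protein 4.1 (−3.21), *aqp1a.1*, a water channel also found in vessels (−3.30), and the carbonic anhydrase *cahz* (−3.32) fell as well. The mutant values of *slc4a1a*, *epb41b* and *sptb* (2.49 to 3.52 over the 3 genes) were close to the floor, so the size of their change may be understated and was not set against that of *alas2*. *klf1*, a Krüppel-like factor of red cells, fell from a low WT level (−1.11, adjusted p = 0.013). The call of *klf1* was lost without WT replicate 1, at a log2 fold change of −0.94, and without replicate 3 of both groups (adjusted p = 0.0804). It was also lost in the methods' t-test after Benjamini-Hochberg adjustment (adjusted p = 0.0609).

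No other gene of the red cell list both passed on p and reached 2-fold. On adjusted p alone, at any fold, 8 of the 14 were lower and 0 higher, where 804 and 947 of all 8793 genes were. *nfe2*, near the floor in both groups and named after its values were seen, was lower at less than 2-fold (log2 fold change −0.42, adjusted p = 0.00791). At an unadjusted p under 0.05 and any fold, 10 of the 14 were lower and 1 was higher (limma), where 1297 and 1905 of all 8793 genes were. By the methods' t-test with the 2-fold minimum 7 of the 14 were lower and 0 higher, where 308 and 86 of all genes were. *blvrb*, a biliverdin reductase, had a log2 fold change of −0.41 (adjusted p = 0.26), *tmod4*, a tropomodulin, −0.53 (95% interval −0.95 to −0.11, adjusted p = 0.0903) and *klf17*, a Krüppel-like factor, −0.48 (−0.86 to −0.09, adjusted p = 0.0936). *tal1*, which marks blood progenitors before red cell genes are switched on and was named after its values were seen, read 5.23, 5.32 and 5.39 in WT and 6.01, 5.37 and 5.84 in fog sk8 embryos (log2 fold change 0.43, adjusted p = 0.157). The groups overlapped in *tal1* and lay apart in *gata1a*. In whole embryos the cells that gave the *tal1* signal are not known, so no stage of red cell development is read from the pair.

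Haem binds the globins, and of 5 measured globin genes the embryonic *hbae3* and *hbbe3* fell (log2 fold changes −1.73 and −1.52), with adjusted p-values of both genes between 0.0508 and 0.0612 (calls lost) when any of WT replicate 1, fog sk8 replicate 1 and fog sk8 replicate 2 was left out. *hbbe2*, another embryonic beta globin, read 8.38, 8.23 and 9.58 in WT and 8.89, 8.85 and 9.98 in fog sk8 embryos. Its groups overlapped, with a log2 fold change of 0.51 (SE 0.47, adjusted p = 0.506). Under the replicate block *hbbe2* had an adjusted p of 0.019, still at less than 2-fold. *hbaa1* and *hbba2* read 2.03 to 2.12 over all 6 arrays and so lay at the floor in both groups. In *alas2* and in *hbae3* and *hbbe3* WT replicate 3 was the highest WT array, but fog sk8 replicate 3 was the highest mutant array in both these globins and the lowest in *alas2*.

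**Figure D3:**
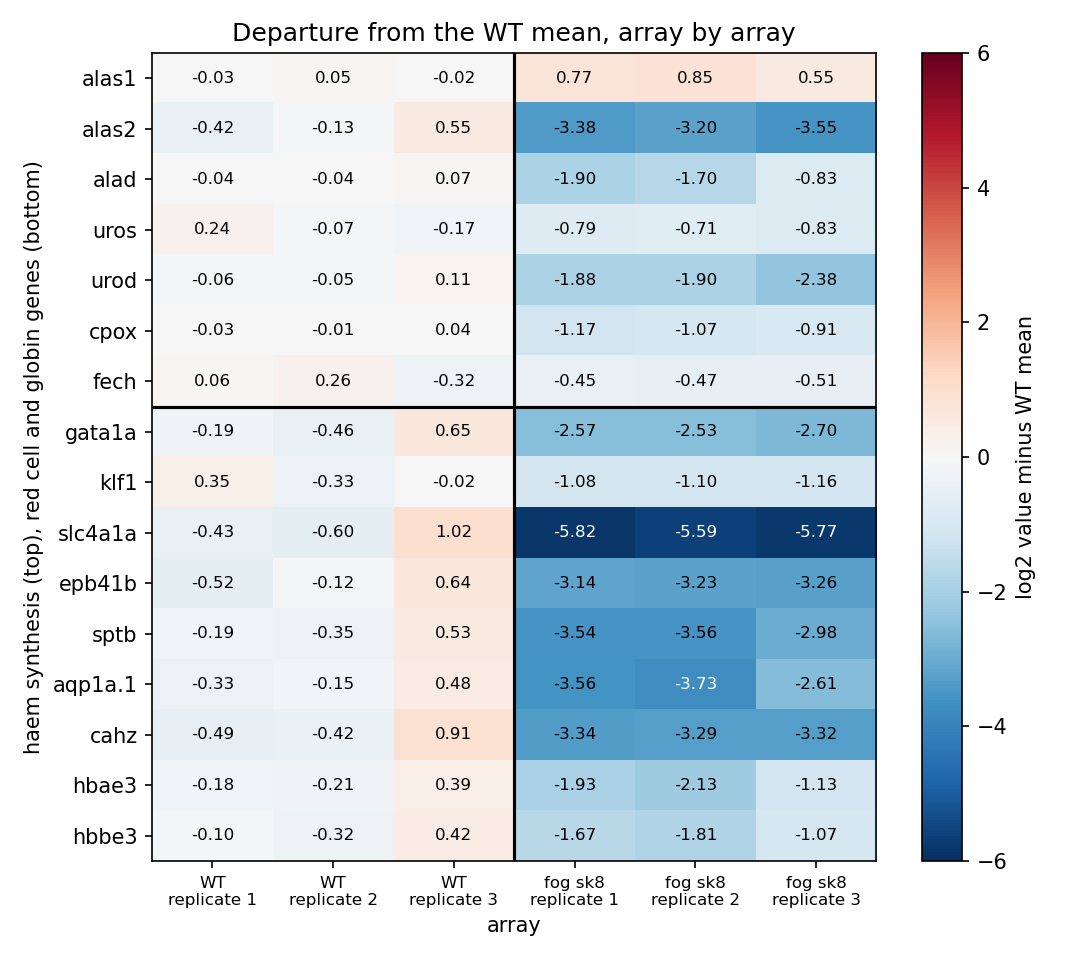
Log2 value minus the WT mean of the gene, in each of the 6 arrays (columns), for the 7 haem synthesis genes (above the line) and the red cell and globin genes that fell (below it); blue is below and red above the WT mean. WT replicate 3 is the highest WT array in *alas2* (0.55 above the mean) and in *slc4a1a* (1.02), and *alad* is less reduced in fog sk8 replicate 3 (−0.83) than in replicates 1 and 2 (−1.90 and −1.70).

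In a list of 18 genes around iron supply, the 7 measured stayed within 2-fold, and the supply of iron as a whole is not read from them. Of 7 measured, 0 rose and 0 fell, and none had an adjusted p under 0.05 (limma). By the methods' t-test with the 2-fold minimum, 0 changed as well. At an unadjusted p under 0.05 and any fold (limma), 4 were higher, as were 1905 of all 8793 genes. The median log2 fold change of the 7 genes was 0.21. *tfa*, the transferrin of the blood plasma, had a log2 fold change of 0.18 (adjusted p = 0.157), *fth1a*, a ferritin chain that stores iron, 0.29 (adjusted p = 0.0548) and *slc11a2*, the iron transporter mutated in *chardonnay* zebrafish, 0.21 (adjusted p = 0.129). The probe set of *slc25a37*, the mitochondrial iron importer mitoferrin, which was named after its values were seen, read 2.30 to 2.37 over all 6 arrays and so was at the floor in both groups.

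Iron-sulphur clusters are made in the mitochondrion from the same iron, and zebrafish that lack *glrx5*, a glutaredoxin of this assembly line, make too little haem. *glrx5* read 9.18, 9.18 and 9.16 in WT and 9.27, 9.27 and 9.39 in fog sk8 embryos (log2 fold change 0.13, adjusted p = 0.182). Of 9 measured genes of cluster assembly, 0 rose and 0 fell by limma or by the methods' t-test, and their median log2 fold change was 0.13. At an unadjusted p under 0.05 and any fold (limma), 3 were higher and 0 lower. Of all 8793 genes, 1905 were higher and 1297 lower by that unadjusted rule. The chaperone *hspa9* had a log2 fold change of −0.12 (adjusted p = 0.404) and the ferredoxin *fdx1* of 0.10 (adjusted p = 0.747).

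Of 26 genes listed for haem transport and breakdown, 8 were measured, and 0 rose and 0 fell by limma or by the methods' t-test. None of the 8 encodes a haem oxygenase, the enzyme that breaks haem down, so breakdown itself is not read. At an unadjusted p under 0.05 and any fold (limma), 3 were higher and 1 lower. Of all 8793 genes, 1905 were higher and 1297 lower by that rule. The median log2 fold change of the 8 genes was 0.21. The brightest did not reach 2-fold, with log2 fold changes of 0.33 for *pgrmc1*, a haem-binding membrane protein (adjusted p = 0.0469), −0.38 for *tspo*, a protein of the outer mitochondrial membrane (adjusted p = 0.211), and −0.012 for *hebp2*, a haem-binding protein (adjusted p = 0.951). A further set is named after their values were seen, as they passed on p and not on fold. *tmem14ca*, whose mammalian counterpart moves protoporphyrinogen IX into the mitochondrial matrix, read 8.69, 8.71 and 8.80 in WT and 7.61, 8.08 and 8.06 in fog sk8 embryos (−0.82 on the log2 scale, SE 0.14, adjusted p = 0.0171). *slc48a1b*, a haem transporter of endosomes and lysosomes, had a log2 fold change of 0.50 (adjusted p = 0.0174), and *lonp1*, the mitochondrial protease that in mammals degrades Alas1 protein, of 0.60 (adjusted p = 0.0113).

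**Figure D4:**
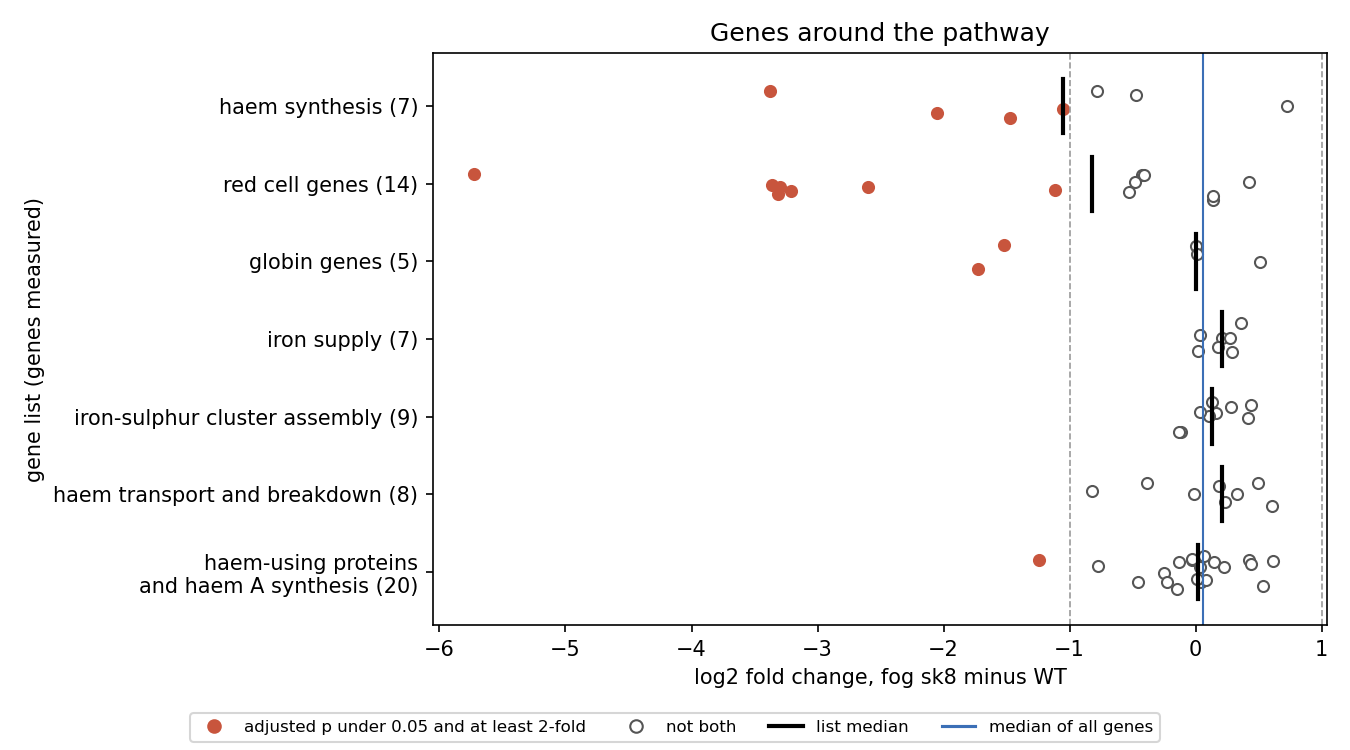
Log2 fold change of fog sk8 against WT (x axis) of each measured gene in the haem synthesis list and 6 lists around it (y axis, number of genes in parentheses), with list medians in black, the median of all genes in blue and the 2-fold limits dashed; filled points passed the test and vertical scatter within a list has no meaning. Filled points are at 4 of 7 haem synthesis genes, 7 of 14 red cell genes, 2 of 5 globin genes and 1 of 20 haem-using genes, and no filled point lies to the right of 0.

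The genes whose values over the 6 arrays were most like those of *alas2* were sought by Pearson's r among 6435 genes with a mean log2 value of at least 4 in a group. They were *ndrg1a*, a gene of the NDRG family (r = 0.999), *si:ch211-137a8.4* (0.999), *hspb8*, a small heat shock protein (0.999), *fgfbp1a*, an FGF-binding protein (0.998), and *lyz* (0.998). The 6 points fall into the pair of groups and share arrays and normalization, so r mostly reads the difference between the groups and is given as a description. On the same measure the other haem genes had r of 0.987 (*urod*), 0.975 (*cpox*), 0.898 (*uros*), 0.888 (*alad*), 0.726 (*fech*) and −0.941 (*alas1*). Likeness in shape did not mean likeness in size, since *hspb8* went from 7.82, 7.82 and 7.99 in WT to 7.19, 7.22 and 7.17 in fog sk8 embryos, a log2 fold change of −0.68.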

How the data were processed

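Total RNA of 3 WT sibling and 3 fog sk8 samples was hybridized to 1 array each. The deposited values are log2 values that the authors made with GC-RMA (background by probe GC content, normalization between arrays, 1 value per probe set; version not given in the sources used here). Embryos were dechorionated by hand or with a protease, and which samples had which is not given. The test was limma's (version 3.58.1, R 4.3.3; lmFit, then eBayes, with group as the only term) on 15502 probe sets, that is all 15617 less 115 controls. Probe sets were named through the platform annotation, updated through Entrez IDs in the RefSeq table of GRCz12tu (1 symbol changed): 10795 had 1 symbol, 135 had several and 4572 had none. Genes in lists were read from their brightest probe set (8793 genes). Members, lists and tests were chosen with earlier results of these data known. The genes named are all haem synthesis genes, in each list those past the threshold and up to 3 others of the highest mean, and the 5 genes most like *alas2*. The mutated gene, cell type markers and genes marked as named after their values were seen come in addition. Exact permutation tests used scipy 1.17.1, and figures matplotlib 3.10.9. The code of the fit was checked on simulated data with independent noise and decreases larger than that of *cpox*. Smaller changes and deviations shared between arrays were not covered.

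Deviations from the group means correlated between replicates that share a number (0.12, 0.29 and 0.39 for replicates 1, 2 and 3, all over the bound of 0.1). Pairs that do not share a number passed the bound too. These were WT replicate 1 with fog sk8 replicate 2 (0.18, the highest for WT replicate 1) and WT replicate 2 with fog sk8 replicate 1 (0.15). A pairing by number is thus possible but not shown. The replicate number as a block was therefore run as an alternative. The others were the methods' t-test, unadjusted and adjusted, calls at any fold, a mean-variance trend, centring on medians, quantile normalization, leaving out dim probe sets (mean under 4 in both groups), each array in turn, and replicate 3 of both groups.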

Additional observations from a re-analysis of the deposited data

How the results depend on the processing

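Of the 7 haem synthesis genes, the number that fell was 2 to 4 with 1 array left out, the lowest without fog sk8 replicate 1, and the number higher was 1 (*alas1*) with no minimum fold. With the replicate number as a block 4 fell, and at the 2-fold minimum the block changed no call of any gene named (adjusted p = 0.0046 for *alas2*). Of the globin genes, 0 fell by the methods' t-test after Benjamini-Hochberg adjustment and 0 to 2 with 1 array left out. With no minimum fold, 1 gene of iron-sulphur cluster assembly was higher, and of haem transport and breakdown 3 genes were higher and 1 was lower. Of all 8793 genes, 947 were higher and 804 lower with no minimum fold. Among genes of haem-using proteins and haem A synthesis, 2 were lower and 2 higher with no minimum fold. In that list 0 were lower by the adjusted t-test, and 0 to 1 with 1 array left out. In genes that had not passed the test, signs turned near 0. With quantile normalization the log2 fold change was −0.023 for *hbaa1*, −0.014 for *hbba2* and −0.0091 for *slc25a37*. That of *hebp2* was 0.027 with arrays centred on medians and 0.12 without replicate 3 of both groups. With 1 array left out, *hbaa1* ranged from −0.015 to 0.029, *hebp2* from −0.12 to 0.068, *fdx1* from −0.060 to 0.25 and *cycsb* from −0.0013 to 0.10. The cause was not tested. *supt5h* and the differences between *alas2* and each other haem gene above the floor kept their direction throughout. For the differences this goes with *alas2* being the most reduced of the 7 genes. Each haem gene has 1 probe set, so averaging probe sets gave no further value. *fech* has no value with dim probe sets left out.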

Other observations

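Transcripts of proteins that use haem were read too. The list had 28 genes, among them genes of haem A synthesis, and 20 were measured. Of these 1 fell, *mb*, the myoglobin of muscle, from 4.80, 4.56 and 5.39 in WT to 3.57, 3.74 and 3.72 in fog sk8 embryos (−1.24 on the log2 scale, SE 0.22, limma's adjusted p = 0.0177), and 0 rose by limma or by the methods' t-test, with 5 higher at an unadjusted p under 0.05 and any fold (limma). The call was lost without WT replicate 1 or any 1 of fog sk8 replicates 1 to 3 (adjusted p = 0.0505 to 0.0597). At an unadjusted p under 0.05 (limma), 2 of the 20 were lower and 5 higher, where 1297 and 1905 of all 8793 genes were. The median of the list was 0.02. *cycsb*, a cytochrome c, and *cyc1*, cytochrome c1, were bright, with log2 fold changes of 0.04 (adjusted p = 0.753) and 0.14 (adjusted p = 0.147). The groups overlapped in *cycsb* and lay apart in *cyc1*, with the mutant arrays higher. *sdhc*, a haem-binding subunit of succinate dehydrogenase, read 9.71, 9.70 and 9.61 in WT and 10.04, 10.22 and 10.38 in fog sk8 embryos, with the groups apart but under 2-fold (log2 fold change 0.54, adjusted p = 0.0198).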
